A study of Mus musculus with 6 samples.

Results

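The glutathione transferase genes followed here, in primary cortical cell cultures of the fetal mouse, are Gsta4, Gstm1, Gstm5, Gstm7, Gstp1, Gsto1, Gstt1, Gstz1, Mgst1 and Mgst3. These 10 genes are 10 of the 43346 rows of the gene count table, and were found by matching the Ensembl identifier of each row, without its version, to the gene symbol. The genes were chosen by their CPM in these 6 libraries, with the difference between 10HDA and vehicle already known, so that difference is given as a description, with its error and without p-values.

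Glutathione transferases join the tripeptide glutathione to reactive electrophilic molecules, which makes these more soluble and ready for export from the cell. The soluble enzymes fall into classes named by Greek letters, of which alpha, mu, pi, omega, theta and zeta are represented here, and Mgst1 and Mgst3 belong to a separate family of membrane proteins. Several alpha and mu genes are known targets of NRF2, the transcription factor that answers oxidative and electrophilic stress. In brain, mu class enzymes are found largely in astrocytes.

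The cultures came from the cerebral cortex of fetuses at gestational day 15.5. There were 3 libraries from cultures given vehicle (DMSO, spelled DSMO in the labels) and 3 from cultures given 10HDA, a fatty acid of royal jelly, at 1 mM. The labels number the cultures 1, 3 and 4 and give each of them 1 vehicle and 1 10HDA library. All 6 libraries share the same source of cells, which the labels give as Cyp19-EGFP mice and the methods as C57BL/6 embryos. The length of the exposure is not given in the sources used here.

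The libraries held from 9144736 to 13367194 counts on genes, so that 3 counts equal 0.22 to 0.33 CPM (counts relative to the total of the library). These limits cover counting error only. All libraries are labelled male, but 4 genes of the Y chromosome (Uty, Kdm5d, Eif2s3y and Ddx3y) summed to 9.07 CPM (vehicle) and 9.30 CPM (10HDA) in culture 1 and to between 97.8 and 136 CPM in the other 4 libraries. The main values are therefore also given without culture 1. Levels are CPM after TMM scaling (a scaling of library totals that damps the pull of a few abundant genes), and errors of means are SDs over 3 libraries. Of the 10 genes, 7 reached 10 CPM in at least 3 libraries and were in the filtered table. Gstm7, Gstt1 and Mgst1 were below it, and their fold changes come from a fit on the unfiltered table.

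Gsta4 had the largest positive difference of the 10 genes. It encodes an alpha class enzyme known for conjugating 4-hydroxynonenal, a product of lipid peroxidation, and lies at chr9:78182774-78209349 on the plus strand (GRCm38). Its level was 10.1, 5.72 and 9.85 CPM in the vehicle libraries of cultures 1, 3 and 4, and 17.8, 18.9 and 18.3 CPM in the 10HDA libraries. The 3 10HDA libraries lay close together and above every vehicle library, and the vehicle library of culture 3 was the lowest. The means were 8.55 ± 2.45 CPM with vehicle and 18.3 ± 0.53 CPM with 10HDA, a fitted log2 fold change of 1.11 with an SE of 0.20. Within cultures the log2 ratios were 0.82, 1.72 and 0.89 for cultures 1, 3 and 4. Without culture 1 the log2 fold change was 1.28 (SE 0.25). Gsta4 reached 10 CPM before TMM scaling in 0 vehicle libraries and 3 10HDA libraries, so it passed the filter only through the group in which it was high.

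Gstm1, a mu class enzyme of broad substrate range, had the highest counted level of the 10 and was also higher with 10HDA in every culture. The gene lies at chr3:108012255-108017973 on the minus strand. It was counted at 107, 79.8 and 98.5 CPM with vehicle in cultures 1, 3 and 4, and at 157, 137 and 149 CPM with 10HDA. The lowest 10HDA library was above the highest vehicle library. The means were 94.9 ± 13.7 and 147 ± 10.2 CPM, with a log2 fold change of 0.64 (SE 0.12). The log2 ratios of the 3 cultures, 0.56, 0.77 and 0.60, were closer to each other than those of Gsta4. Without culture 1 the log2 fold change was 0.70 (SE 0.14).

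Gsta4 and Gstm1 passed an adjusted p of 0.1 in edgeR's quasi-likelihood test over all genes, as did 0.627% of the 10520 genes tested (0.2% upwards and 0.428% downwards). The difference had already chosen these genes, so this is no independent test of it and nothing is read from the count. Of the 66 genes past the threshold, 31.8% were higher with 10HDA, and 46.7% of those called with library size alone as the scaling. Both genes also passed with culture as a block, that is, with the libraries paired by culture, where 8.98% of all genes passed (3.91% upwards and 5.08% downwards), and their paired log2 fold changes were 1.13 and 0.64. With both libraries of culture 1 left out, neither passed without the block and both passed with it. Every 10HDA library was above every vehicle library in 5.96% of all genes tested.

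**Figure D1:**
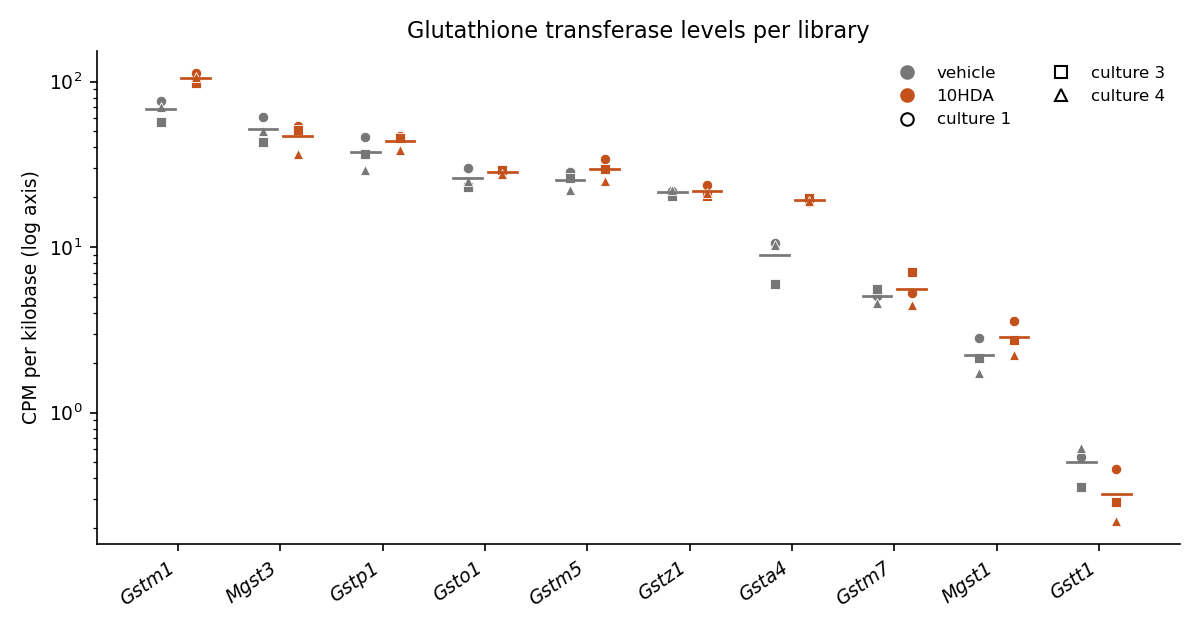
Level of each glutathione transferase gene in each library, in CPM per kilobase of merged exon length on a log axis; grey marks are vehicle, orange marks 10HDA, the shape gives the culture and the bars are means of 3 libraries. The groups do not overlap for Gstm1 and Gsta4, and overlap for the other 8 genes.

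Gstm5 and Gstm7 are mu class genes of the same chromosome 3 cluster. Gstm5 (chr3:107895821-107898686, plus strand) was at 36.3, 33.4 and 28.5 CPM with vehicle and 43.4, 38.0 and 32.2 CPM with 10HDA in cultures 1, 3 and 4. The 10HDA library was the higher one of each culture, although the groups overlapped, and the log2 fold change was 0.21 (SE 0.14), with a range of 0.10 to 0.32 when 1 library was left out. Gstm7 (chr3:107926334-107931817, minus strand) was at 8.06, 8.89 and 7.39 CPM with vehicle and 8.42, 11.4 and 7.18 CPM with 10HDA. Its log2 fold change of 0.17 was smaller than its SE of 0.19.

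Gstp1 encodes the pi class enzyme and lies at chr19:4035407-4037985 on the minus strand. It was counted at 35.3, 27.5 and 22.1 CPM with vehicle and at 35.4, 34.4 and 29.3 CPM with 10HDA. The libraries of culture 1 were nearly level, with a log2 ratio of 0.004, and the ratios of cultures 3 and 4 were 0.32 and 0.41. The fitted log2 fold change was 0.23 (SE 0.17), and 0.38 (SE 0.18) without culture 1.

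The omega, zeta and theta genes showed small or poorly measured differences. Gsto1, whose enzyme has thioltransferase and dehydroascorbate reductase activity, lies at chr19:47854970-47864790 and was at 58.8, 45.7 and 49.2 CPM with vehicle against 56.2, 57.1 and 54.4 CPM with 10HDA. Its groups overlapped through the vehicle library of culture 1, with a log2 fold change of 0.13 (SE 0.11). Gstz1, or maleylacetoacetate isomerase of tyrosine breakdown, lies at chr12:87147165-87164723 and was at 36.5, 33.7 and 36.7 CPM against 39.3, 34.1 and 35.4 CPM, with a log2 fold change of 0.03 (SE 0.11). Gstt1 (chr10:75783813-75798584) had 44 counts in all 6 libraries together, and its levels of 0.82, 0.54 and 0.93 CPM with vehicle and 0.70, 0.44 and 0.34 CPM with 10HDA gave a log2 fold change of -0.58 (SE 0.51). It was lower with 10HDA in each culture, with an error nearly as large as the difference.

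The membrane enzymes differed from each other in direction. Mgst3, known for leukotriene C4 synthase and peroxidase activity, lies at chr1:167371966-167393841 and was at 67.0, 47.3 and 55.0 CPM with vehicle against 59.0, 56.0 and 40.3 CPM with 10HDA. It was lower with 10HDA in cultures 1 and 4 and higher in culture 3, and the log2 fold change of -0.12 was within its SE of 0.16. Mgst1 (chr6:138140316-138156755), a conjugating and peroxidase enzyme of the endoplasmic reticulum and outer mitochondrial membrane, was at 5.68, 4.33 and 3.48 CPM against 7.19, 5.53 and 4.49 CPM. The log2 ratio was nearly the same in each culture (0.34, 0.35 and 0.36), while the groups overlapped and the fitted value was 0.37 (SE 0.22). Leaving out 1 library moved that value to between 0.16 and 0.58.

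Taking all 10 genes, 5 were higher with 10HDA in each of the 3 cultures, namely Gsta4, Gstm1, Gstm5, Gstp1 and Mgst1. In the filtered table this held for 4 of 7 and for 18.6% of all genes tested. Of these 7 genes, 6 had a fitted value above 0, against 47.9% of all genes, and the median was 0.21, against -0.01. These shares come from the comparison that chose the genes and include Gsta4, which had to differ to pass the filter. Without culture 1 the log2 fold changes were 0.20 (SE 0.17) for Gstm5, 0.25 (SE 0.14) for Gsto1, -0.00046 (SE 0.15) for Gstz1 and -0.06 (SE 0.18) for Mgst3. On the unfiltered table they were 0.21 (SE 0.24) for Gstm7, -0.85 (SE 0.67) for Gstt1 and 0.37 (SE 0.28) for Mgst1.

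**Figure D2:**
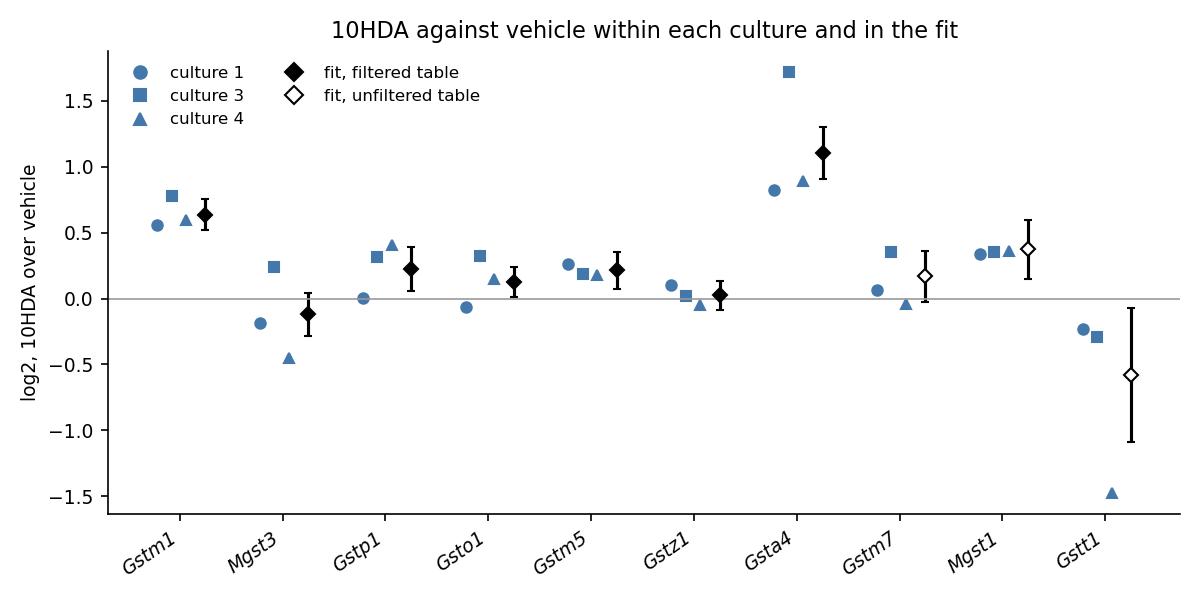
Log2 ratio of 10HDA over vehicle for each gene, as blue marks for cultures 1, 3 and 4 and as a black diamond for the fitted log2 fold change with its SE; open diamonds are genes under the filter on low counts. Gsta4 spans 0.82 to 1.72 and Gstm1 0.56 to 0.77, while the marks of Mgst3, Gstz1, Gsto1 and Gstm7 fall on both sides of 0.

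Levels of different genes were compared per kilobase of merged exon length. In the vehicle libraries the order was Gstm1 (68.1 ± 9.82 CPM per kilobase), Mgst3 (51.5 ± 9.05), Gstp1 (37.4 ± 8.74), Gsto1 (26.0 ± 3.44), Gstm5 (25.6 ± 3.09), Gstz1 (21.4 ± 1.01), Gsta4 (8.93 ± 2.56), Gstm7 (5.07 ± 0.47), Mgst1 (2.23 ± 0.55) and Gstt1 (0.50 ± 0.13). Neighbours in this order overlapped over the libraries from Gstm1 down to Gstm5, and did not overlap from Gstm5 downwards. In the 10HDA libraries Gsta4 stood at 19.1 ± 0.56 and Gstz1 at 21.8 ± 1.62 CPM per kilobase. Gstm1 made up 26.0% to 29.9% of the summed level per kilobase of the 10 genes in the vehicle libraries and 32.3% to 37.8% in the 10HDA libraries. These shares count Gstp1 without the reads on its pseudogene, which are given below.

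Differences between cultures are another comparison than the one that chose the genes. They were tested with edgeR over the 3 cultures, with treatment in the model. The genes were chosen by their CPM in these same libraries, so the outcome may still depend on that choice. At an adjusted p of 0.1 over all genes, 9.93% of the genes tested and 0 of the 7 glutathione transferases in the filtered table passed. DESeq2's likelihood ratio test also called 0 of the 7. At an unadjusted p under 0.05 in edgeR's test there were 4 of the 7. The share of all genes at that limit was not taken, so nothing is read from this count. Gstp1 was nearest, with an adjusted p of 0.1005 and culture means of 35.3, 30.9 and 25.7 CPM for cultures 1, 3 and 4. Gstm5 followed with 39.8, 35.7 and 30.3 CPM (adjusted p = 0.155 in edgeR's test) and Mgst3 with 63.0, 51.7 and 47.6 CPM (adjusted p = 0.156 in the same test). For Gstm1 and Gsta4 the adjusted p values from edgeR were 0.203 and 0.544. These calls moved with the settings, since Gstp1 passed with DESeq2's size factors and with upper quartile scaling, Gstp1, Gstm5 and Mgst3 with library size alone or without culture 3, and Gstp1 and Mgst3 with no filter. Without culture 1, 0 of the 7 passed.

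Close paralogs can share reads, so every stretch of 50 bases, the read length, was taken from the annotated protein-coding transcripts of each gene and looked for in the transcripts of all other genes (GENCODE M21). For Gsta4, Gsto1, Gstt1, Mgst1 and Mgst3, 0% of the stretches occurred elsewhere. The share was 19.9% for Gstm1, 17.2% for Gstz1, 12.2% for Gstm5, 0.53% for Gstm7 and 51.0% for Gstp1. The stretches of Gstz1 were shared with Pomt2 and those of Gstm5 with the antisense gene 4933431E20Rik, which overlap them on the opposite strand. The library kit was strand-specific, but whether the counting used strand, and how it treated reads with several matches, is not given in the sources used here.

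Gstp1 was the gene most open to this. Its coding sequence of 630 bases is 98.1% identical to that of its neighbour Gstp2 and 97.6% identical over 628 bases to a processed pseudogene, Gstp-ps, on chromosome 1. The sequences below are bases 3 to 62 of the Gstp1 coding sequence and the aligned bases of the other genes (GENCODE M21, GRCm38, 5′ to 3′), shown because they let a reader see how little separates the copies. Capitals mark the 6 positions at which the copies are not all alike.
Gstp1: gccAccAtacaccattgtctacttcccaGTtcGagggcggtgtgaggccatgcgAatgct
Gstp2: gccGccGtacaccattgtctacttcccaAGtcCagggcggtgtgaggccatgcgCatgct
Gstp-ps: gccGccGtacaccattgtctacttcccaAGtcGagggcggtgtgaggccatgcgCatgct

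Gstp2 had 0 counts in all 6 libraries. Gstp-ps had 911, 849 and 860 counts with vehicle and 990, 1232 and 670 with 10HDA in cultures 1, 3 and 4, against 385, 356 and 260 and then 403, 466 and 261 for Gstp1. The pseudogene thus held 70.3% to 76.8% of the counts of the pair in each library. Per kilobase it stood at 104 to 144 CPM, against 29.2 to 46.7 CPM for Gstp1. The summed level of the pair was 102 ± 14.2 CPM with vehicle and 117 ± 11.2 CPM with 10HDA, with log2 ratios of 0.04, 0.43 and 0.13 in cultures 1, 3 and 4. The level of Gstp1 per kilobase given above is therefore uncertain, and with it the first rank of Gstm1 and its share of the summed level. Gstp1 and Gstp-ps (log2 fold change 0.19, SE 0.12) had the same direction, but can share reads. Their sum then had to have that direction too. Gstp-ps was singled out after its values were seen.

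**Figure D3:**
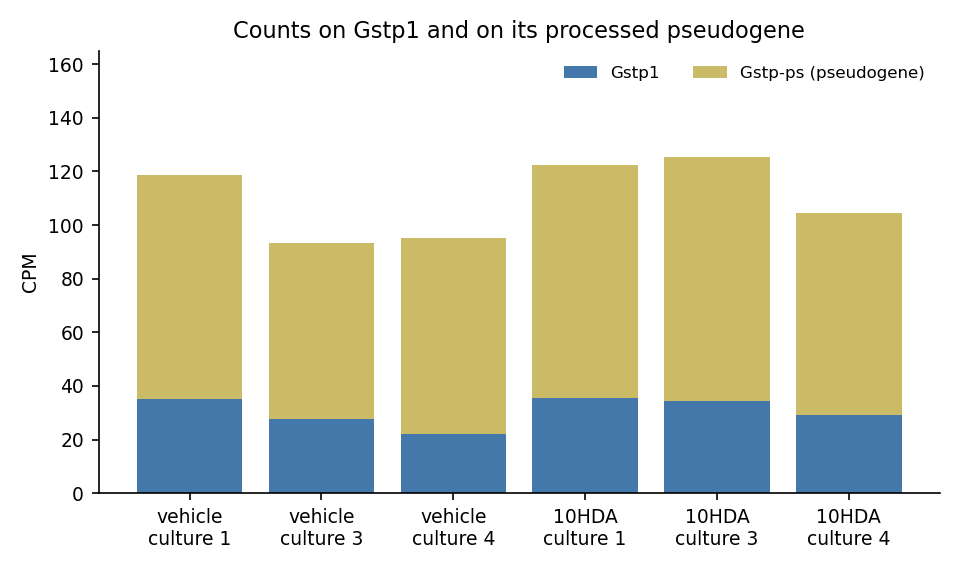
CPM counted on Gstp1 (blue) and stacked on it on the processed pseudogene Gstp-ps (yellow) in each of the 6 libraries. The pseudogene holds 70.3% to 76.8% of each bar, and the summed bars run from 93.2 to 119 CPM with vehicle and from 104 to 125 CPM with 10HDA.

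Gstm1 shared its stretches mainly with pseudogenes, 14.9% with Gstm2-ps1 and 6.17% with Gm8834, and with its neighbour Gstm3 (8.60%). Gstm2-ps1 and Gm8834 are not among the counted genes, so how many reads came from them is not known. With Gstm2 it shared 0.76%. The neighbours held far fewer counts than Gstm1, which had 8322 in the 6 libraries against 355 for Gstm3 and 260 for Gstm2. Seen from the neighbours, 28.8% of the stretches of Gstm3 and 8.30% of those of Gstm2 occurred in another gene. In Gstm1 itself these shares were 9.83% and 0.96%. With so few counts on the neighbours, a small part of the reads of Gstm1 could weigh on their values. Whether such reads were counted on Gstm3 or Gstm2 was not tested.

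The Gstm cluster holds 7 genes, in the order Gstm5, Gstm7, Gstm6, Gstm3, Gstm2, Gstm1 and Gstm4 along chromosome 3. Gstm2, Gstm3, Gstm4 and Gstm6 were singled out as neighbours of Gstm1 after their values were seen, and all 4 were under the filter on low counts. Gstm2 was at 3.11, 2.17 and 2.72 CPM with vehicle and 6.14, 4.35 and 4.15 CPM with 10HDA, so that the groups did not overlap. Its log2 fold change was 0.89 (SE 0.25), with an adjusted p of 0.028 in edgeR's test of the unfiltered table, in which 1.09% of genes passed in that direction. Under a filter of at least 1 CPM in at least 3 libraries the adjusted p was 0.227 in edgeR's test, and over all alternatives it ran from 0.0020 to 0.744. Gstm3 had a log2 fold change of 0.57 (SE 0.22, adjusted p = 0.248 in edgeR's test of the unfiltered table, 0.045 with culture as a block). Gstm4 and Gstm6, with -0.41 (SE 0.20) and -0.34 (SE 0.31), had values below 0 and did not pass. The direct neighbours of Gstm1 are Gstm2 and Gstm4.

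**Figure D4:**
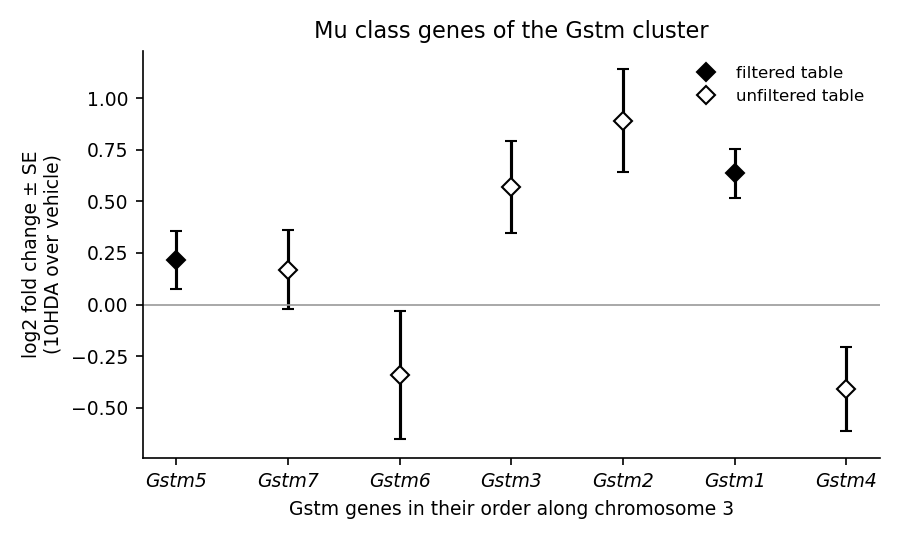
Fitted log2 fold change of 10HDA over vehicle with its SE for the 7 genes of the Gstm cluster in their order along chromosome 3; filled diamonds are genes of the filtered table and open diamonds genes below it. Gstm3, Gstm2 and Gstm1 lie between 0.57 and 0.89, Gstm4 and Gstm6 below 0.

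Promoters of NRF2 targets often carry an antioxidant response element, the core of which was searched on both strands as TGACNNNGC, where N is any base. The windows ran from 250 bases before to 50 bases after each start site (RefSeq, GRCm38.p6), and 9 of the 10 genes had at least 1 window. The gene without a window was Gsta4. The motif occurred in 12.4% of all 32851 windows, and in windows of Gstm5, Gstm7 and Mgst1. That share is per window, and a gene with more than 1 window has more chances of a match. The matches are printed with 10 bases on each side, on the strand of the gene, with the match in capitals, and lie at chr3:107895802-107895830, chr3:107931725-107931753 and chr6:138140461-138140489.
Gstm5: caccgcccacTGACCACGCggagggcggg
Gstm7: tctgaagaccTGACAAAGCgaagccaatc
Mgst1: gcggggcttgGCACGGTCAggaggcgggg

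The match lies 42 bases before the RefSeq start site of its window in Gstm5, 129 in Gstm7 and 56 in Mgst1, where it reads on the opposite strand. These are genes with fitted log2 fold changes of 0.21, 0.17 and 0.37. In Gstm7 and Mgst1 the printed match lies inside the gene bounds given above. Each of these genes also had a window of another start site without a match, at chr3:107931768-107932067 for Gstm7 and chr6:138141337-138141636 for Mgst1. The windows of Gstm1, Gstp1, Gsto1, Gstt1, Gstz1 and Mgst3 held no match, which says only that these letters are not in these windows. The 100 bases before the start of Gstm1 (chr3:108017974-108018073, minus strand) overlap no annotated exon. They are shown because Gstm1 had the highest counted level of the 10 genes, and are in lower case throughout because they hold no match.
Gstm1: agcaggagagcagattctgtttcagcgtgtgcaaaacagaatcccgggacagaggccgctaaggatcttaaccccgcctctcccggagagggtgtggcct

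Among the other genes of the family, Gstcd, Gdap1 and Ptges2 were in the filtered table. Their log2 fold changes were 0.30 (SE 0.14), -0.14 (SE 0.11) and 0.13 (SE 0.12). Of the 3, 0 passed in edgeR, DESeq2 or limma-voom, and 0 had an unadjusted p under 0.05 in any of these. Gstcd, like Gsta4, reached the filter only in the 10HDA libraries. Gstp2, Gstp3 and Ltc4s had 0 counts.

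The genes that make and recycle glutathione, the substrate of these enzymes, gave a divided picture. Of 8 tested genes of glutathione synthesis and breakdown, 1 rose and 1 fell, where 0.2% of all genes tested rose and 0.428% fell, and the median log2 fold change was 0.21. Chac1, a gamma-glutamylcyclotransferase that degrades glutathione, rose, with levels of 26.7 ± 2.78 CPM with vehicle and 49.9 ± 5.63 CPM with 10HDA and a fitted log2 difference of 0.90 (SE 0.13, adjusted p = 0.027 in edgeR's test). Cbs, the first enzyme of the path from homocysteine to cysteine, fell and had levels of 26.1 ± 2.82 CPM with vehicle and 16.2 ± 1.61 CPM with 10HDA, which is -0.69 on the log2 scale (SE 0.14, adjusted p = 0.072 in the same test). Without culture 1 neither passed in edgeR's test (adjusted p = 0.169 for Chac1 and 0.596 for Cbs), nor without culture 3 (0.124 and 0.424), and Cbs did not pass with library size alone (0.146). Without culture 4 the values were 0.0994 and 0.122. Leaving out 1 library, Chac1 did not pass without the 10HDA library of culture 1 or the vehicle library of culture 3 or 4, and Cbs passed only without the 10HDA library of culture 4. With the block both passed, also with any culture left out.

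Slc7a11, the cystine transporter subunit, was at 276 ± 81.9 and 160 ± 48.6 CPM and was lower in each culture, with a log2 fold change of -0.79 that did not pass in edgeR's test without the block (adjusted p = 0.296) and passed with it (adjusted p = 8.58e-06). Gclm, the modifier subunit of the enzyme that starts glutathione synthesis, had a log2 fold change of 0.32 (adjusted p = 0.346 in edgeR's test, 0.070 with the block).

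Of 11 tested genes of glutathione reduction and peroxidases 0 passed in edgeR, DESeq2 or limma-voom, with 1 unadjusted p under 0.05 in each, and the median was -0.01. The largest differences were those of Gsr, glutathione reductase, at 0.38 (SE 0.11), and Gpx4, the lipid hydroperoxide peroxidase, at -0.35 (SE 0.17), and both passed with the block (adjusted p = 0.031 and 0.081 in edgeR's test). Of 5 tested genes of conjugate export and the mercapturate steps, 0 passed with each of these tools, again with 1 unadjusted p under 0.05. Abcc4, a multidrug export pump, was at 0.46 (SE 0.17) and passed with the block (adjusted p = 0.067 in edgeR's test), but it reached 10 CPM in 0 vehicle and 3 10HDA libraries and so entered the table only through the group in which it was high. Abcc1, another pump, was at 0.21 (SE 0.12). Of 10 tested genes of NRF2 and its regulators, 0 passed with these tools, with 1 unadjusted p under 0.05 in each, or with the block. Nfe2l2, which encodes NRF2, was at 11.6 ± 2.34 and 12.6 ± 1.06 CPM, and the largest values were those of its small MAF partners, 0.26 for Mafg and 0.20 for Mafk. With the block 7 genes of these lists passed in place of 2, while the block raised the share of all genes past the threshold from 0.627% to 8.98%.

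**Figure D5:**
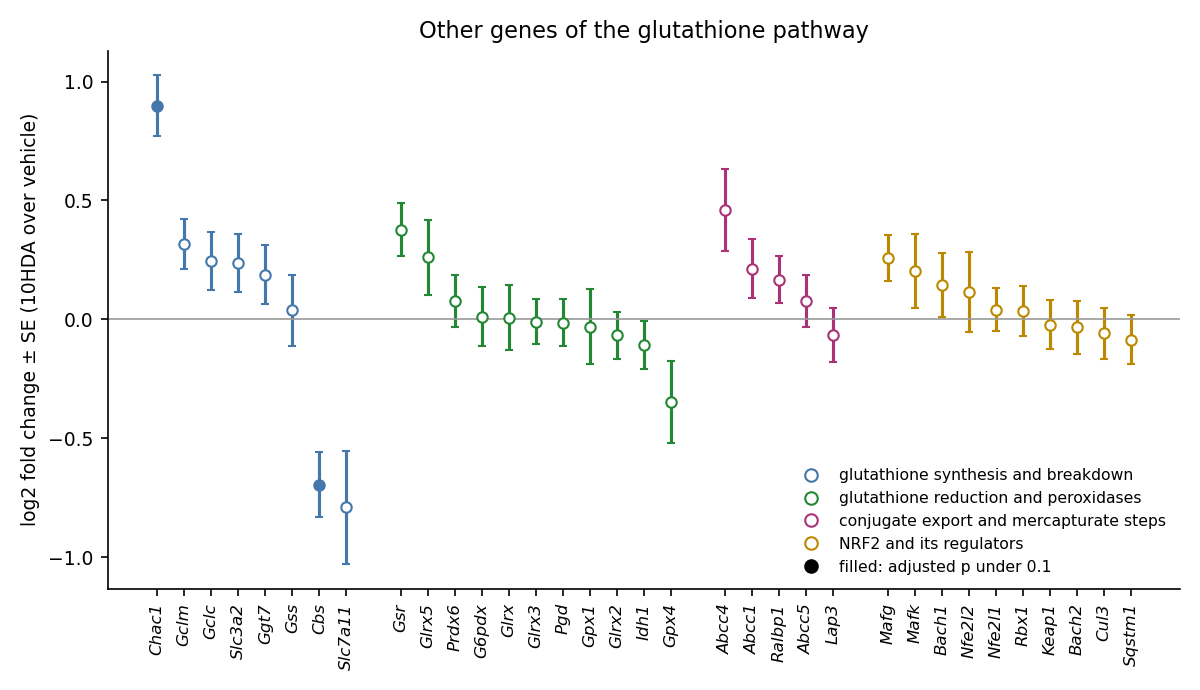
Fitted log2 fold change of 10HDA over vehicle with its SE for the tested genes of 4 lists around glutathione; filled points have an adjusted p under 0.1 in edgeR's test without the block. Chac1 at 0.90 and Cbs at -0.69 are the filled points, and Slc7a11 at -0.79 has a wide error.

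The patterns of Gsta4 and Gstm1 over the 6 libraries were compared with those of tested genes with a symbol outside the family. The measure was the root mean square distance between log2 CPM values after each gene's own mean was taken away. Family genes were not ranked, while the medians given are over all tested genes. The nearest genes to Gsta4 were Ephx1 (distance 0.20), an epoxide hydrolase, Srxn1 (0.23), sulfiredoxin, and P2rx3 (0.24), an ATP-gated channel, where the median over all genes was 0.64. Those nearest to Gstm1 were Angptl6 (0.03), Eif4ebp1 (0.07), a repressor of translation, and Hmox1 (0.10), heme oxygenase, where the median was 0.38. P2rx3 reached 10 CPM before TMM scaling in 0 vehicle libraries and 3 10HDA libraries. The distance includes the step between the treatments, by which Gsta4 and Gstm1 were chosen, so near genes had to share that step. The fitted log2 fold changes were 1.09, 0.99 and 1.01 for Ephx1, Srxn1 and P2rx3. They were 0.64, 0.72 and 0.79 for Angptl6, Eif4ebp1 and Hmox1. Nearness is therefore a description, and nothing is read from it about joint regulation.

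Markers of several cell types also differed between the treatments. Of 10 tested astrocyte markers, 5 fell and 9 had fitted values below 0, against 0.428% and 52.1% of all genes tested, with a median log2 fold change of -0.62, and the summed level of the list was 1300 to 1596 CPM with vehicle and 974 to 1213 CPM with 10HDA. With culture as a block 6 passed downwards, against 5.08% of all genes tested. Without culture 1 the median was -0.58, and 0 passed without the block and 6 with it. Over all genes tested, these 2 settings called 2 and 430 genes downwards. Of 12 neuronal markers 10 had values below 0 and 0 passed (5 at an unadjusted p under 0.05, and 1 adjusted call with DESeq2). With the block 5 passed downwards, and the sums were 8055 to 8735 CPM with vehicle and 6783 to 7754 CPM with 10HDA. Over all 10520 genes tested, 1059 had an unadjusted p under 0.05, DESeq2 called 170, and 534 passed downwards with the block. The markers of oligodendrocyte lineage summed to 362 to 452 and 278 to 391 CPM. Those of endothelial cells and pericytes summed to 17.9 to 19.3 and 8.25 to 11.4 CPM, and those of meningeal fibroblasts to 11.1 to 14.3 and 6.78 to 8.51 CPM, with Slc6a13 at 0. Only 1 of 9 endothelial and pericyte genes and 0 of 7 meningeal genes were in the filtered table. The highest count of any of these genes in a library was 204 and 120 for the 2 lists, so both sums rest on few counts. The summed levels of interneuron, radial glia and dividing cell markers overlapped between the treatments. With the block 5 of 11 tested interneuron and 3 of 8 tested oligodendrocyte lineage markers passed downwards, in place of 0 and 1. The share over all genes tested was 5.08% with the block and 0.428% without it. The microglial list was at 0.93 to 1.37 and 0.81 to 1.32 CPM, with 1 of its 9 genes, Tmem119, at 0. Gsta4 and Gstm1 thus had higher levels in libraries in which the summed astrocyte, neuronal, endothelial and meningeal lists were lower. The part of these lists in the levels of the glutathione transferases was not tested, and in bulk RNA fewer cells of a type and less RNA per cell cannot be told apart.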

How the data were processed

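RNA of 6 libraries was sequenced as single-end reads of 50 bases. The authors used Subjunc (Subread 1.4.4) for alignment of the untrimmed reads to mm10, and featureCounts with Gencode models for counting, as their methods state. The deposited values are raw counts, with no normalization, together with the merged exon length of each gene. Columns were assigned to samples by the library number in the titles, and the number of further columns was 0. Symbols and coordinates were from GENCODE M21, which matched 98.0% of 43346 identifiers.

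The members and lists were chosen with earlier results of these data known. The named genes are the 10 members, the other family genes of the filtered table, in each pathway list the genes past the threshold and the 2 of largest change, and the 3 genes of nearest pattern to Gsta4 and to Gstm1. A gene had to reach 10 CPM in 3 or more libraries, which left 10520. After TMM scaling the treatments were tested in R 4.3.3 by glmQLFit and glmQLFTest of edgeR 4.0.16, and genes with a Benjamini-Hochberg adjusted p under 0.1 were called. The SE of a log2 fold change is that value over the root of its F statistic. Log2 CPM for patterns used a prior count of 2. The methods describe replicates of the culture experiments as separate cultures. The libraries were made with a strand-specific kit. An exact permutation test of 3 against 3 libraries cannot go below p = 0.1 and was not run.

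Each culture has, per the labels, 1 vehicle and 1 10HDA library, and the culture numbers therefore pair the libraries. As a check, deviations from the treatment means correlated across genes at 0.37, 0.24 and 0.62 within cultures 1, 3 and 4 and at -0.45 to 0.18 between cultures. The fit with culture as a replicate block called 945 genes and the fit without it 66.

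Alternatives were DESeq2 1.42.0, limma-voom (limma 3.58.1), 3 other scalings, 2 other filters, a threshold of 0.05, the block, and each library and culture left out. For genes under the filter, each alternative was run on the unfiltered table, a choice made after seeing the data, as was the sum of Gstp1 and Gstp-ps. The scripts were tested on simulated data.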

Additional observations from a re-analysis of the deposited data

How the results depend on the processing

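The log2 fold change of Gsta4 ranged from 0.86 to 1.31 and that of Gstm1 from 0.54 to 0.75 over 20 alternatives each. Both were above 0 in all 20 and past the threshold in 13. No value past the threshold in the main fit changed direction. The 2 glutathione transferases past the threshold became 1 (Gsta4) at an adjusted p of 0.05 and 0 when both libraries of culture 1, 3 or 4 were left out. With those cultures left out and culture as a replicate block, 2, 3 and 2 passed, the added one being Mgst3, lower with 10HDA. Leaving out 1 library gave 0 to 2, with 0 for the 10HDA libraries of cultures 1 and 3 and the vehicle libraries of cultures 3 and 4. The cause was not tested.

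The count of all genes past the threshold, 66, was 170 with DESeq2's Wald test, 636 with no filter, 945 with the replicate block (all 66 among them) and 43 at 0.05. It was 3, 0 and 36 without cultures 1, 3 and 4, 711, 1150 and 277 when these were left out with the block, and 0 to 350 when 1 library was left out. The 2 calls among the other family and pathway genes became 7 with the block, 4 with no filter, 1 with library size alone, 1 at 0.05, and 0, 0 and 1 without cultures 1, 3 and 4. With the block they were 4 without culture 1 and 7 without culture 3, and leaving out 1 library gave 0 to 3. The 1045 differences between cultures became 325 with DESeq2's likelihood ratio test, 2152 without culture 3, 27 without culture 4 and 604 at 0.05. Library size alone moved the median log2 fold change of all genes from -0.01 to 0.07. Mgst3 was above 0 in 4 of 20 alternatives, Gstz1 in 18 of 20 and Gstm7 in 18 of 19. Depth limits Gstt1, at under 1 CPM in every library.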
